A study of Mus musculus with 14 samples.

Results

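A set of 10 genes that mark the vessels of muscle was followed in whole mouse quadriceps with and without the histone deacetylase HDAC3. They were named as vessel markers, with earlier results of these data known: 7 endothelial genes (Pecam1, Cdh5, Kdr, Tek, Tie1, Emcn and Vwf) and 3 genes of the smooth muscle of the vessel wall (Acta2, Myh11 and Tagln). All 10 were found in the expression table, out of 24354 gene symbols, and all 10 were among the 9204 genes that were tested. The HDAC3 Knock-out group had 3 RNA-seq libraries and the HDAC3 Wild-type group 3. All 6 libraries came from quadriceps muscle of male mice of strain C57B/6, 4 months old, resting, on normal chow and a light/dark schedule, taken at zeitgeber time 10 (ZT10, 10 hours after lights on). The promoter or Cre that removed HDAC3, the cells in which it acts and any pooling of animals are not stated in the labels, which also do not say whether the libraries came from separate animals, so p-values measure a spread that may be technical. The other 8 of the series' 14 samples (ChIP-seq, input and nascent RNA) were not used here.

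The inner lining of every vessel is endothelium. Its cells are held together by PECAM1 and VE-cadherin (Cdh5), sense vascular endothelial growth factor (VEGF) through the receptor KDR, and are kept quiescent by angiopoietin 1 acting on the receptor TEK, also called TIE2, whose orphan partner is TIE1. Arteries, arterioles and veins carry smooth muscle outside that lining, which contracts through smooth muscle actin (Acta2) and smooth muscle myosin (Myh11) and is rich in transgelin (Tagln), while capillaries are wrapped in pericytes instead. In muscle the capillaries pass fuel and oxygen to the fibres, so vessel transcripts are part of any RNA taken from the whole tissue. HDAC3 is the catalytic subunit of the NCoR and SMRT corepressor complexes.

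Smooth muscle genes are classically driven by serum response factor through CArG boxes, 10-base elements that begin with CC, end with GG and hold 6 A or T bases between. Endothelial genes are classically driven by ETS factors, which bind around GGAA. Of the 10 genes, 5 had a promoter in the RefSeq table of build GRCm38.p6 (Kdr, Tek, Tie1, Emcn and Acta2), and no window was at hand for Pecam1, Cdh5, Vwf, Myh11 and Tagln. The 250 bases before the start of the smooth muscle actin gene and of the paired receptor genes Tek and Tie1 are shown, since they set the vessel wall class beside the endothelial one. Capitals mark CArG boxes in Acta2, with 1 G or C allowed among the 6 inner bases, and GGAA on either strand in Tek and Tie1. The windows lie at chr19:34255374-34255623 (minus strand), chr4:94739039-94739288 (plus strand) and chr4:118489850-118490099 (minus strand), and each reads 5′ to 3′ on the strand of the gene.
Acta2: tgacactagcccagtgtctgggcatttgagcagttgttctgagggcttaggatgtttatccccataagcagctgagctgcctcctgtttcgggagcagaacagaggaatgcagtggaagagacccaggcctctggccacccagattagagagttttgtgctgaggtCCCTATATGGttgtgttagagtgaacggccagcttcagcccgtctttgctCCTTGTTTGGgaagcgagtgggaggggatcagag
Tek: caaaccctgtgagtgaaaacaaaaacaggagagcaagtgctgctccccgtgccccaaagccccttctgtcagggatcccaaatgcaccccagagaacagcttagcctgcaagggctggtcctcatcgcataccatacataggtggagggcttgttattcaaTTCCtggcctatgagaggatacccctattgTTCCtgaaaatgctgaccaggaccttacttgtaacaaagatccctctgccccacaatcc
Tie1: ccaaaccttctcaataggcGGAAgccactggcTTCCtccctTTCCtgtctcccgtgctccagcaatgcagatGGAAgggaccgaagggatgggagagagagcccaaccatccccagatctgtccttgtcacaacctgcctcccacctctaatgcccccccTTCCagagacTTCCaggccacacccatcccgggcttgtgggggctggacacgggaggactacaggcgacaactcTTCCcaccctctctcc
The Acta2 window held 2 such CArG boxes, CCCTATATGG at 84 to 75 bases before the start and CCTTGTTTGG at 34 to 25 bases before it, and the last base of the second is also the first of a GGAA. Of 32851 promoter windows 8.59% held at least 1 such box and 0.67% held 2 or more, and the strict form, with no G or C inside, was in 1.47% and not in Acta2. GGAA was found 7 times in Tie1, 2 times in Tek, 4 times each in Kdr and Emcn, and 3 times in Acta2, and was present in 93.4% of all windows with a median of 3. Among the endothelial windows, Kdr also held 1 CArG box of the relaxed form, CCATTACTGG at 236 to 227 bases before the start. So neither motif was confined to the windows of 1 class. These matches describe the letters and say nothing of binding in this tissue.

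Levels are FPKM as deposited, that is, fragment numbers divided by gene length and by library size, so levels of different genes can be compared. The tissue label was checked with 6 skeletal fibre genes (Acta1, Ckm, Tnnt3, Myh4, Myh1 and Pvalb), which summed to 48630 to 60337 FPKM in knockout and to 49149 to 58762 FPKM in wild type, out of 454359 to 495099 FPKM per library over all genes. Depth relative to wild-type replicate 1, read from the steps between genes under 0.3 FPKM, was 0.660, 0.832 and 0.674 in knockout replicates 1, 2 and 3, and 0.831 and 1.02 in wild-type replicates 2 and 3, so low genes are least precise in knockout replicates 1 and 3. Hdac3 itself had 0.227 times its wild-type mean in knockout, with the highest knockout library at 8.16 FPKM and the lowest wild-type library at 23.7 FPKM (limma, adjusted p = 0.00487). A gene was called changed when limma, fitted to log2(FPKM + 1) of all 9204 tested genes, gave a Benjamini-Hochberg adjusted p under 0.05. By that rule 4.72% of tested genes were called. By the deposited q-value of the authors, at the same threshold, 10.8% were called, 5.90% as risen and 4.94% as fallen. Fold changes are knockout over wild type. Those called log2 fold changes are differences of log2(FPKM + 1), which understate the change of low genes, and those called folds are ratios of mean FPKM.

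None of the 10 vessel genes was called changed in the knockout. Limma called 0 of 3 vessel wall and 0 of 7 endothelial genes, and the authors' deposited table had 0 of 10 under its q threshold. At an unadjusted p under 0.05, limma had 1 of the 10, Tagln, where 21.5% of all tested genes passed, and the authors' deposited table had 0, where 22.3% passed. The groups did not overlap in 1 of the 10 genes, transgelin, against 28.0% of all tested genes, and in smooth muscle actin, smooth muscle myosin and the 7 endothelial genes they overlapped. With bulk tissue, fewer cells of a type and less RNA per cell cannot be told apart.

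**Figure D1:**
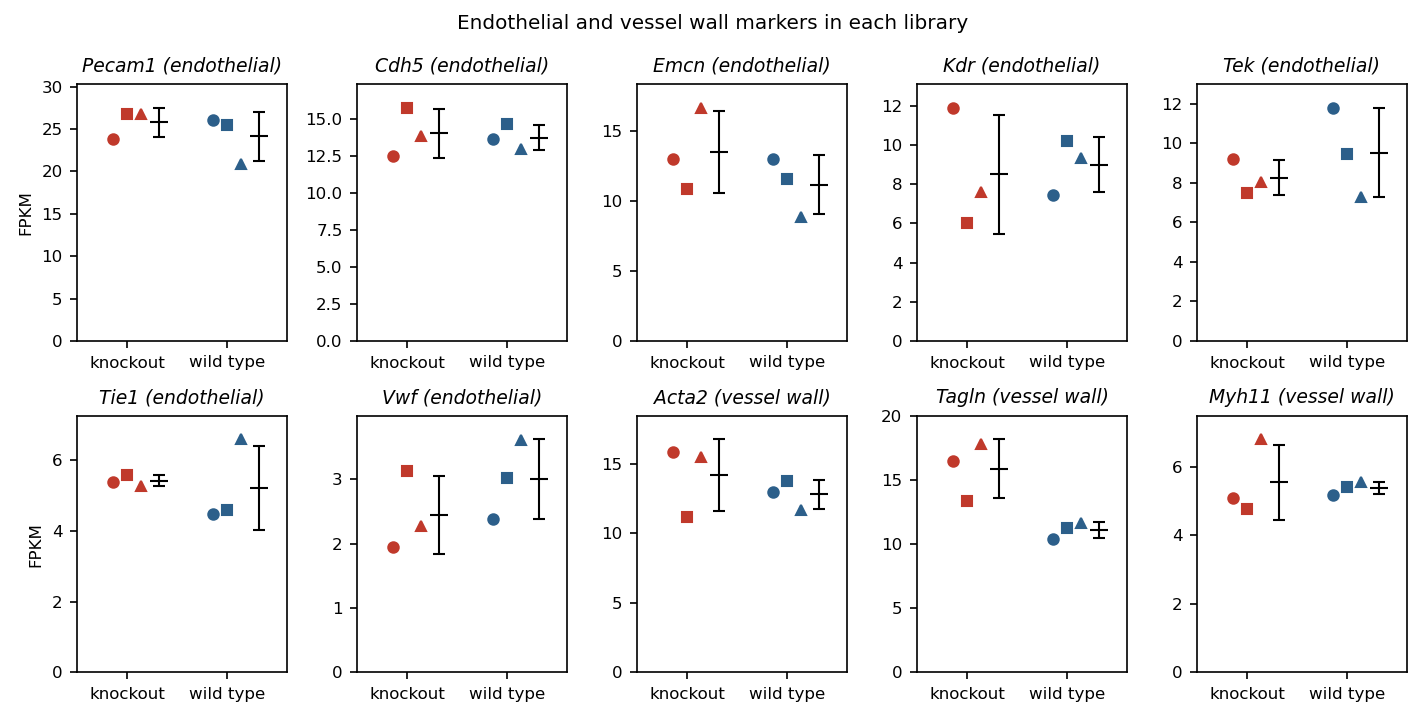
FPKM (vertical axis, from 0) of the 10 vessel genes in the 3 knockout (red) and 3 wild-type (blue) libraries, with circles, squares and triangles for replicates 1, 2 and 3 and bars for the mean and SD of each group. The groups overlap in 9 genes, and Tagln, at 13.4 to 17.9 FPKM in knockout and 10.4 to 11.7 FPKM in wild type, is the exception.

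Among the junction and surface proteins of endothelium, Pecam1 was the most abundant of the 10 genes in both groups. Its levels were 23.9, 26.8 and 26.8 FPKM in knockout, against 26.1, 25.5 and 20.9 FPKM in wild type. The groups overlapped, with the lowest value in wild-type replicate 3 (log2 fold change 0.10, 95% interval -0.18 to 0.37, limma adjusted p = 0.684). Cdh5, the adherens junction cadherin of endothelial cells, was at 12.5, 15.7 and 13.8 FPKM in knockout and at 13.6, 14.6 and 13.0 FPKM in wild type. It had the narrowest interval of the endothelial genes, -0.25 to 0.29 around 0.02 (limma adjusted p = 0.934). Emcn encodes endomucin, a sialomucin of capillary and venous endothelium, and stood at 13.0, 10.9 and 16.6 FPKM in knockout and 13.0, 11.6 and 8.86 FPKM in wild type. Its highest value was in knockout replicate 3 and its lowest in wild-type replicate 3, while the replicates numbered 1 were alike at 13.0 FPKM (log2 fold change 0.25, interval -0.18 to 0.69, limma adjusted p = 0.485).

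The receptor tyrosine kinases came next. Kdr, the main signalling receptor for VEGF-A, was at 11.9, 6.02 and 7.61 FPKM in knockout libraries and at 7.47, 10.2 and 9.34 FPKM in wild-type libraries. Knockout replicates held both the highest and the lowest value of the 6, and the coefficient of variation was 35.8% in knockout, the highest of the 10 genes in either group, and 15.5% in wild type (log2 fold change -0.11, interval -0.64 to 0.42). Tek was at 9.22, 7.49 and 8.04 FPKM in knockout and 11.8, 9.46 and 7.28 FPKM in wild type, where replicate 1 was highest and replicate 3 lowest. The log2 fold change of Tek was -0.17 with an interval of -0.57 to 0.23 (limma adjusted p = 0.626). Tie1 was almost constant in knockout, at 5.38, 5.57 and 5.27 FPKM, and wider in wild type, at 4.46, 4.59 and 6.58 FPKM, so that the knockout values lay inside the wild-type range (log2 fold change 0.06, interval -0.29 to 0.41). The ratio of Tek to Tie1 was 1.71, 1.34 and 1.52 in knockout libraries and 2.64, 2.06 and 1.11 in wild-type libraries. It overlapped between the groups.

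Vwf, which encodes the von Willebrand factor that endothelium stores and platelets also carry, was the lowest of the 10 genes. It stood at 1.95, 3.12 and 2.27 FPKM in knockout and 2.38, 3.01 and 3.61 FPKM in wild type, overlapping, with a log2 fold change of -0.22 and an interval of -0.65 to 0.21 (limma adjusted p = 0.550). A set of 5 platelet genes was put beside it. Their summed level was 4.32 to 6.19 FPKM in knockout and 6.71 to 14.7 FPKM in wild type. Of the 5, 2 were tested, and neither was called or had an unadjusted p under 0.05 by limma, where 21.5% of all tested genes passed. Gp9 was listed at 0 in all knockout libraries and in wild-type replicates 2 and 3. Ppbp, a platelet chemokine, was at 0.556, 0.882 and 0.272 FPKM in knockout and 0, 5.52 and 1.08 FPKM in wild type (limma adjusted p = 0.608). The platelet sum was highest in wild-type replicate 2, the library in which 4 neutrophil genes summed to 527 FPKM, against 3.39 to 7.41 FPKM in knockout and 5.47 and 9.60 FPKM in the other wild-type libraries. Vwf was not highest in that library, and the part of blood cells in its level was not tested.

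In the vessel wall class, Tagln stood apart in its values. Transgelin, also called SM22 alpha, is an actin-binding protein of contractile smooth muscle. It was at 16.5, 13.4 and 17.9 FPKM in knockout libraries, against 10.4, 11.3 and 11.7 FPKM in wild-type libraries. Every knockout library lay above every wild-type library, as in 15.6% of all tested genes. The mean was 15.9 ± 2.31 FPKM in knockout and 11.1 ± 0.644 FPKM in wild type (SD, n = 3 libraries each), a log2 fold change of 0.47 with an interval of 0.17 to 0.77. It missed the threshold over all tested genes (limma adjusted p = 0.0863), and the authors' deposited table gives it a q-value of 0.335. An exact permutation test of its 6 libraries gave a two-sided p of 0.1, the smallest that 3 against 3 allows. The direction was the same under all 15 alternative settings, with adjusted p from 0.0636 to 0.335.

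Acta2 and Myh11, the actin and the myosin heavy chain of smooth muscle, did not separate the groups. Acta2 was at 15.8, 11.2 and 15.5 FPKM in knockout and 12.9, 13.8 and 11.7 FPKM in wild type. Knockout replicates 1 and 3 were above all wild-type libraries and knockout replicate 2 below all of them (log2 fold change 0.12, interval -0.22 to 0.47, limma adjusted p = 0.684). Myh11, taken as the most specific of the 3 for mature smooth muscle, was at 5.09, 4.76 and 6.80 FPKM in knockout and 5.18, 5.41 and 5.55 FPKM in wild type. Knockout replicate 3 was the highest and the other knockout libraries were the lowest of the 6 (log2 fold change 0.03, interval -0.30 to 0.35, limma adjusted p = 0.941). All 3 vessel wall genes were at their lowest knockout level in replicate 2. The ratio of Tagln to Myh11 was 3.24, 2.81 and 2.63 in knockout libraries and 2.01, 2.09 and 2.11 in wild-type libraries, without overlap, and that of Tagln to Acta2 was 1.04, 1.20 and 1.15 in knockout libraries and 0.806, 0.819 and 1.0 in wild-type libraries, also without overlap. Set against the endothelial gene Pecam1, Tagln gave a ratio of 0.691, 0.499 and 0.666 in knockout libraries. In wild-type libraries that ratio was 0.400, 0.442 and 0.560, so the groups overlapped. No test was made of these ratios, which were looked at after the values were seen.

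**Figure D2:**
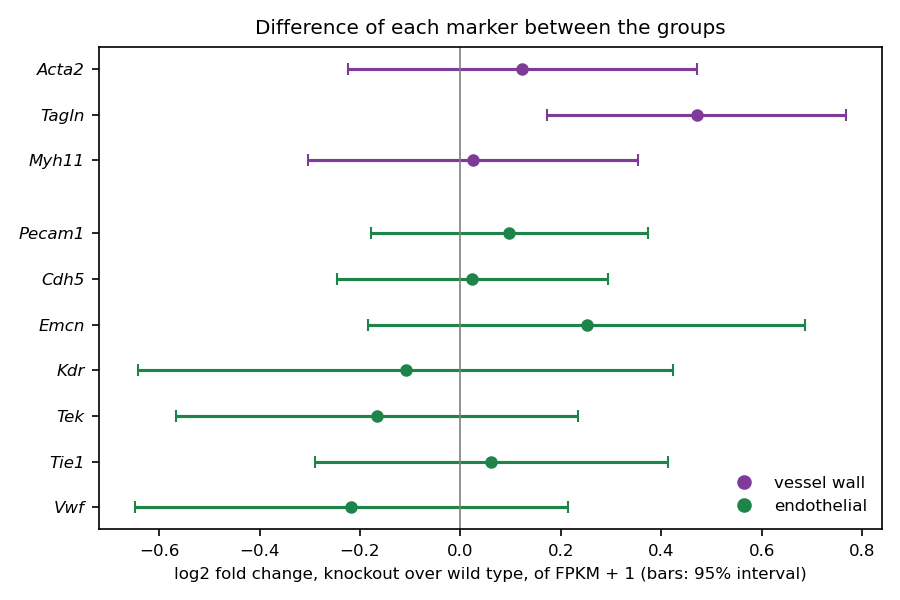
Log2 fold change of FPKM + 1, knockout over wild type (horizontal axis), of each gene, with the 95% interval from limma, vessel wall genes in purple and endothelial genes in green. The intervals of 9 genes include 0, and that of Tagln runs from 0.17 to 0.77.

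Acta2 needs care in skeletal muscle, because the coding sequences of the actin genes are close to each other and the fibres are full of skeletal actin. Acta1, the skeletal gene, was at 8395, 11028 and 12215 FPKM in knockout libraries and at 8404, 8374 and 14394 FPKM in wild-type libraries. Acta2 thus amounted to 0.188%, 0.101% and 0.127% of Acta1 in knockout and to 0.154%, 0.165% and 0.0811% in wild type. The library highest in Acta1, wild-type replicate 3, was the second lowest in Acta2. Actc1, cardiac actin, was at 13.5, 20.4 and 8.71 FPKM in knockout and 292, 68.3 and 32.6 FPKM in wild type, while Acta2 in wild-type replicate 1, where Actc1 was at 292 FPKM, was 12.9 FPKM. Actc1 did not overlap between the groups and missed the threshold (log2 fold change -2.61, limma adjusted p = 0.0894). The authors' deposited table gives Actc1 a q-value of 0.00119. The counting of reads that fit several actin genes is not described in the labels, and the part of such reads in the level of Acta2 was not tested. The related genes of the other wall members gave Myh9 at 9.02 ± 1.51 FPKM in knockout and 10.2 ± 3.38 FPKM in wild type, Myh10 at 4.04 ± 1.44 FPKM in knockout and 3.66 ± 0.750 FPKM in wild type, and Tagln2, a transgelin of many other cells, at 8.40 ± 2.25 FPKM in knockout and 8.23 ± 3.42 FPKM in wild type (SD, n = 3 libraries each). None of these 3 was called or had an unadjusted p under 0.05 by limma or a q-value under the threshold in the table of the authors. Actg2, the enteric smooth muscle actin, averaged 0.475 FPKM in knockout and 0.296 FPKM in wild type and was not tested.

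**Figure D3:**
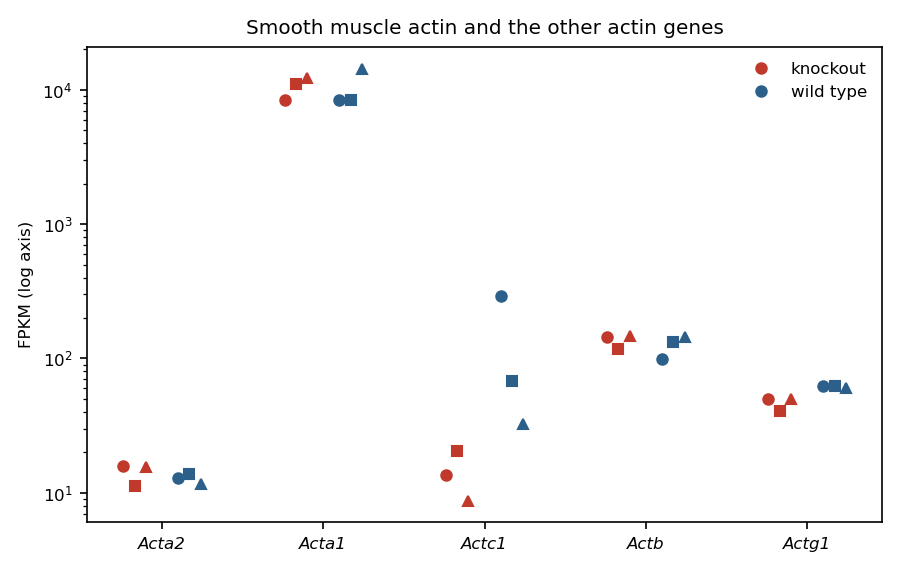
FPKM on a log axis of Acta2 and the other actin genes in knockout (red) and wild-type (blue) libraries, with circles, squares and triangles for replicates 1, 2 and 3. Acta1 lies between 8374 and 14394 FPKM and Acta2 between 11.2 and 15.8 FPKM, and the wild-type points of Actc1 spread from 32.6 to 292 FPKM.

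Vessel wall and endothelial genes were then set against each other as classes. The 3 vessel wall genes summed to 37.4, 29.3 and 40.2 FPKM in knockout libraries and to 28.5, 30.5 and 28.9 FPKM in wild-type libraries. Knockout replicates 1 and 3 were thus above every wild-type library in the wall sum, and knockout replicate 2 lay among them. The 7 endothelial genes summed to 77.8, 75.6 and 80.5 FPKM in knockout libraries and to 78.8, 79.0 and 69.5 FPKM in wild-type libraries. The wall sum was 48.0%, 38.8% and 49.9% of the endothelial sum in knockout, against 36.2%, 38.6% and 41.6% in wild type, so the groups overlapped. The median log2 fold change was 0.12 over the vessel wall genes and 0.02 over the endothelial genes, beside 0.01 over all 9204 tested genes. The difference of the class medians was 0.10, and no test was made of it. A related measure per library took the median deviation of each class, in log2(FPKM + 1), from the wild-type mean. Its wall minus endothelial difference averaged 0.13 in knockout (SD 0.284) and 0.01 in wild type (SD 0.0900), with 3 libraries each. The difference of the class medians was 0.22 without Acta2, 0.23 without knockout replicate 2 and 0.01 without knockout replicate 1. The median absolute log2 fold change was 0.12 for vessel wall and 0.11 for endothelial genes, against 0.18 for all tested genes.

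**Figure D4:**
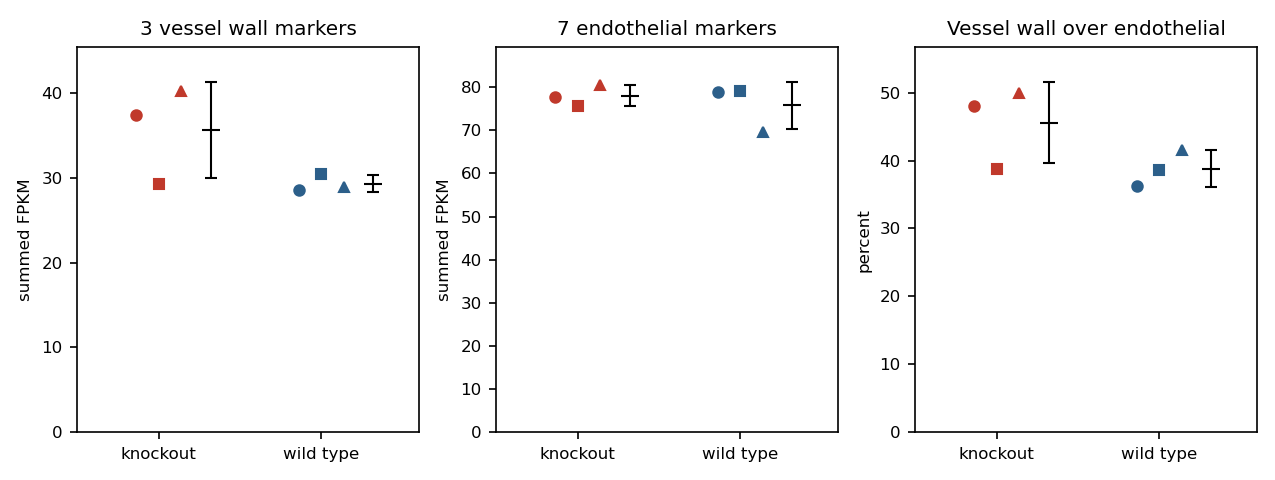
Summed FPKM of the 3 vessel wall genes (left) and the 7 endothelial genes (middle), and the first as a percentage of the second (right), per library, knockout in red and wild type in blue, with mean and SD beside the points. The endothelial sums lie between 69.5 and 80.5 FPKM in all 6 libraries, and knockout replicates 1 and 3 are highest in the wall sum and in the percentage.

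The order of the levels was similar in both groups. In knockout, Pecam1 was followed by Tagln, Acta2, Cdh5, Emcn, Kdr, Tek, Myh11, Tie1 and Vwf, and in wild type by Cdh5, Acta2, Emcn, Tagln, Tek, Kdr, Myh11, Tie1 and Vwf. In both groups the libraries of neighbours in these orders overlapped, except between Pecam1 and the gene after it, between the lower of the receptors Kdr and Tek and Myh11, and between Tie1 and Vwf. By mean level over the 6 libraries Pecam1 was at or above 78.9% of tested genes, Acta2 64.8% and Vwf 13.3%. Coefficients of variation in knockout were 19.7% for Myh11, 14.5% for Tagln and 18.3% for Acta2, and those in wild type were 3.47% for Myh11, 5.79% for Tagln and 8.25% for Acta2. In the other direction, Tie1 had 2.81% in knockout and 22.8% in wild type, Tek 10.7% in knockout and 23.7% in wild type, and Pecam1 6.56% in knockout and 11.8% in wild type.

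Genes whose levels followed each class most closely over the 6 libraries were found by Pearson's r between log2(FPKM + 1) and the mean z-score of the class. For the endothelial class they were Alkbh3 (r = 0.969), Hbb-b1 (0.967), Birc6 (0.960), Alg14 (0.960) and Gpr89 (0.957). For the vessel wall class they included Slain2 (r = 0.982), Acly (0.977), Actn2 (0.973) and Kansl3 (0.971). These are descriptions over 6 libraries of 2 groups, which differ in depth and whose scaling is not stated in the labels. Of the 9204 tested genes, the members not counted, 35 and 66 had an r over 0.9 with the endothelial and the wall class. How many unrelated genes would pass that mark was not tested. Hbb-b1, a beta globin of red cells, was at 51.3, 203 and 129 FPKM in knockout and 103, 231 and 38.0 FPKM in wild type, and wild-type replicate 2 was highest and wild-type replicate 3 lowest both in it and in the endothelial score. Actn2, the actinin of the sarcomere, was at 251, 186 and 388 FPKM in knockout and 182, 196 and 203 FPKM in wild type.

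Further vessel genes, from lists chosen by name, were read in the same fit. Of 26 other endothelial genes 23 were tested and none was called by limma. At an unadjusted p under 0.05 limma had 0 of them higher and 1 lower, where 21.5% of all tested genes passed in either direction. Their median log2 fold change was -0.03. Sox7, an endothelial SOX factor, had the largest change of these, at 1.5, 1.25 and 1.08 FPKM in knockout and 2.91, 1.75 and 2.14 FPKM in wild type (log2 fold change -0.51, limma adjusted p = 0.163). Sox7 was the 1 gene of that list past the q threshold in the authors' deposited table, at 0.0422, where 10.8% of all tested genes passed. Of 10 genes of capillary endothelium and its surroundings, some of which handle lipid and fuel, all were tested and none was called. At an unadjusted p under 0.05 limma had 1 of these higher and 0 lower, where 21.5% of all tested genes passed in either direction, and their median was 0.27. Rgcc had the largest change there, at 84.5, 39.0 and 96.7 FPKM in knockout and 27.0, 43.4 and 45.1 FPKM in wild type, with knockout replicate 2 inside the wild-type range (log2 fold change 0.85, limma adjusted p = 0.215). The authors' deposited table gives Rgcc a q-value of 0.00119, and no other gene of that list passed there.

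Markers that divide vessels by type were low. Of 10 arterial, 7 venous and 5 lymphatic endothelial genes, 4, 5 and 2 were tested, and limma called none. None had an unadjusted p under 0.05 by limma, where 21.5% of all tested genes passed. Nor did any pass the q threshold of the authors' deposited table, where 10.8% of all tested genes passed. Their median log2 fold changes were -0.01, -0.22 and -0.12. The largest changes were those of Gja4, a gap junction gene of arterial endothelium (1.63, 1.17 and 2.88 FPKM in knockout, 2.16, 3.12 and 3.59 FPKM in wild type), Lrg1 (log2 fold change 0.39) and the lymphatic hyaluronan receptor gene Lyve1 (log2 fold change -0.15). Lrg1 was the 1 higher gene of the 5 venous genes tested, and the other 4 were lower. The lymphatic chemokine gene Ccl21a was listed at 0 in all 6 libraries. Of 11 pericyte genes 10 were tested and none was called. At an unadjusted p under 0.05 limma had 0 higher and 1 lower, where 21.5% of all tested genes passed in either direction. The authors' deposited table likewise had 0 and 1 past its q threshold, where 10.8% of all tested genes passed. Rgs5, a classical pericyte gene, was at 158, 172 and 168 FPKM in knockout and 204, 158 and 136 FPKM in wild type. Abcc9, the sulfonylurea receptor subunit of potassium channels in pericytes and also in muscle fibres, was at 34.9, 44.4 and 38.6 FPKM in knockout and 62.3, 64.1 and 51.5 FPKM in wild type. It did not overlap between the groups and just missed the threshold (log2 fold change -0.58, interval -0.89 to -0.28, limma adjusted p = 0.0518), and in the authors' deposited table it had a q-value of 0.00302. Abcc9 was called with median-ratio scaling (limma adjusted p = 0.0464), with quantile normalization (0.0490) and without wild-type replicate 3 (0.0439), and the adjusted p of its other limma fits lay between 0.0517 and 0.181.

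Among the signals that act on these vessels, 2 of the tested ligands were called as fallen by limma, calls that some fits with a library left out lost. In a list of 23 angiogenic ligands and receptors, 16 were tested, none rose and 2 fell by limma, Angpt1 and Vegfb, where 1.67% of all tested genes fell. At an unadjusted p under 0.05 limma had 2 of the 16 higher and 2 lower, where 21.5% of all tested genes passed in either direction. The authors' deposited table had 1 higher and 2 lower past its q threshold, where 10.8% of all tested genes passed. The median of the list was -0.07. Angpt1, the ligand of TEK, was at 3.64, 3.12 and 3.28 FPKM in knockout, against 7.24, 7.46 and 6.22 FPKM in wild type. All knockout libraries were below all wild-type libraries, and the fold was 0.480 (log2 fold change -0.87 ± 0.12 SE, limma adjusted p = 0.0154). There were 0.395, 0.417 and 0.408 FPKM of Angpt1 per FPKM of Tek in knockout and 0.615, 0.789 and 0.855 in wild type. The call of Angpt1 was lost without knockout replicate 3 (adjusted p = 0.0606) and without wild-type replicate 2 (adjusted p = 0.0754), with log2 fold changes of -0.86 and -0.83.

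Vegfb, a VEGF family ligand that binds the receptor FLT1 and is linked to fatty acid transport across endothelium, was at 8.96, 13.0 and 11.5 FPKM in knockout and 18.8, 17.6 and 18.0 FPKM in wild type. The groups did not overlap (fold 0.615, log2 fold change -0.67 ± 0.14 SE, limma adjusted p = 0.0399), and 5 of the 6 fits with a library left out lost the call, all but that without knockout replicate 2. Their adjusted p lay between 0.0822 and 0.135 and their log2 fold changes between -0.70 and -0.53. Flt1 itself was at 6.11, 9.66 and 11.2 FPKM in knockout and 10.4, 8.63 and 7.69 FPKM in wild type (log2 fold change -0.02). Vegfa, the ligand of KDR, was at 115, 58.6 and 107 FPKM in knockout and 55.9, 67.5 and 97.2 FPKM in wild type, overlapping (limma adjusted p = 0.574). Fgf1, singled out after its values were seen, was at 20.0, 21.5 and 26.3 FPKM in knockout and 15.4, 12.4 and 8.72 FPKM in wild type (log2 fold change 0.86, limma adjusted p = 0.0565), with a q-value of 0.00119 in the authors' deposited table. Fgf1 was called by limma without wild-type replicate 1 (adjusted p = 0.0428).

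**Figure D5:**
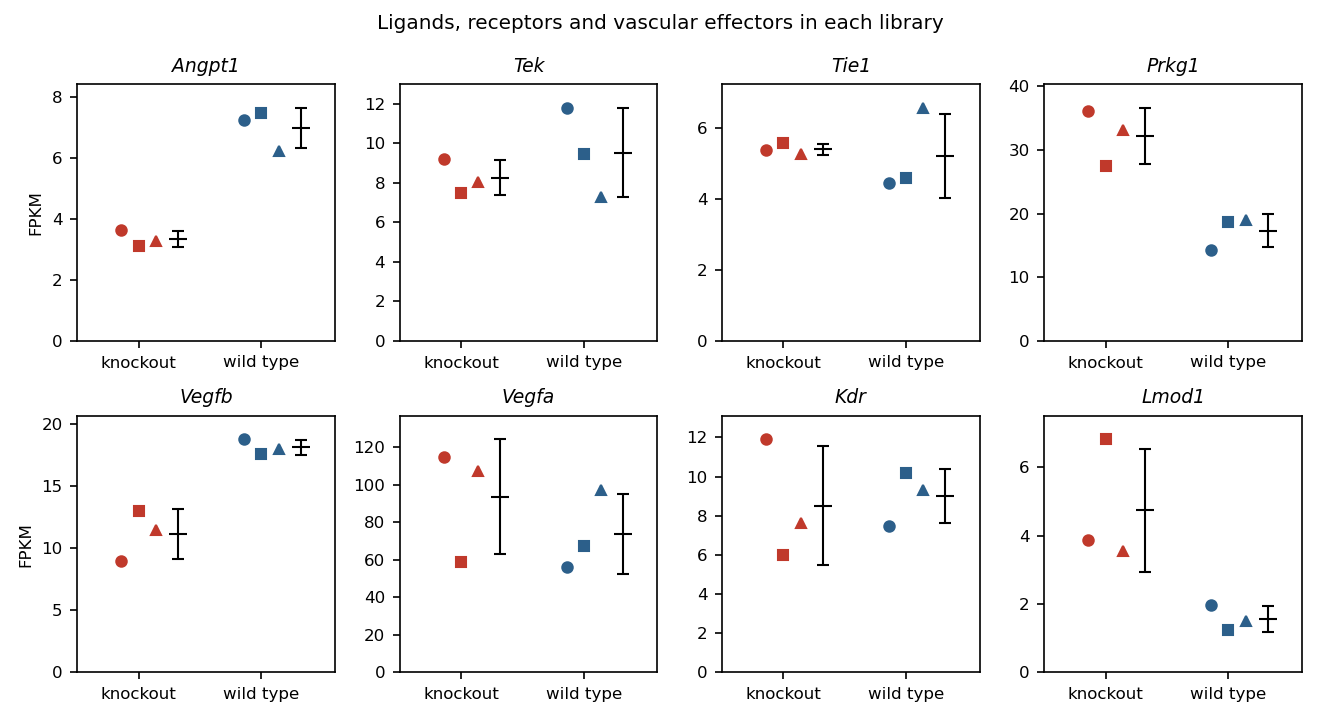
FPKM (vertical axis, from 0) of the ligand genes Angpt1, Vegfb and Vegfa, the receptor genes Tek, Tie1 and Kdr, and Prkg1 and Lmod1, in knockout (red) and wild-type (blue) libraries, with mean and SD beside the points. Angpt1 and Vegfb lie lower and Prkg1 and Lmod1 higher in every knockout library, while the receptors Tek, Tie1 and Kdr overlap.

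On the smooth muscle side, 15 further genes were listed, 10 were tested, 1 rose and none fell by limma, where 3.04% of all tested genes rose. At an unadjusted p under 0.05 limma had 1 higher and 1 lower, where 21.5% of all tested genes passed in either direction. The authors' deposited table also had 1 and 1 past its q threshold, where 10.8% of all tested genes passed. The median was -0.04. The risen gene was Lmod1, a leiomodin that nucleates actin filaments in smooth muscle. It was at 3.87, 6.81 and 3.54 FPKM in knockout and 1.96, 1.23 and 1.5 FPKM in wild type, a fold of 3.03 without overlap (log2 fold change 1.13 ± 0.23 SE, limma adjusted p = 0.0392). Each of the 6 fits without a library lost the call of Lmod1, with adjusted p between 0.0623 and 0.145 and log2 fold changes between 0.88 and 1.28. The gene lower at an unadjusted p under 0.05 was Casq2, cardiac calsequestrin, which slow muscle fibres also make, with a log2 fold change of -0.74 (limma adjusted p = 0.0975). Tpm2 and Mustn1 of the same list are strongly made by skeletal fibres. Cnn1, calponin of contractile smooth muscle, was between 0.108 and 1.09 FPKM in knockout and between 0.179 and 0.614 FPKM in wild type and was not tested, and Myocd, the smooth muscle coactivator of serum response factor, was under 0.1 FPKM in each library.

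Of 14 genes of vascular tone 6 were tested, 1 rose and none fell by limma, where 3.04% of all tested genes rose and 1.67% fell. At an unadjusted p under 0.05 limma had 1 higher and 0 lower, where 21.5% of all tested genes passed in either direction. The authors' deposited table also had 1 higher and 0 lower past its q threshold, where 10.8% of all tested genes passed. In each count the gene was Prkg1, with a deposited q-value of 0.00119. Prkg1 encodes the cyclic GMP-dependent kinase through which nitric oxide relaxes smooth muscle. It was at 36.1, 27.4 and 33.1 FPKM in knockout and 14.3, 18.7 and 18.9 FPKM in wild type, a fold of 1.86 without overlap (log2 fold change 0.86 ± 0.15 SE, limma adjusted p = 0.0245). Its call was lost when knockout replicate 1 (adjusted p = 0.0829), knockout replicate 3 (0.0946) or wild-type replicate 2 (0.0830) was left out. Which cells of the muscle gave the transcripts of Prkg1, Lmod1, Angpt1 and Vegfb cannot be told from whole tissue and was not tested. Nos3, the endothelial nitric oxide synthase, was at 0.923, 1.47 and 1.45 FPKM in knockout and 0.935, 2.25 and 2.39 FPKM in wild type and was not tested. A list of 15 genes held serum response factor (Srf), its coactivators Mkl1 and Mkl2, and its targets. Of these 13 were tested and limma called none, with 2 higher and 4 lower at an unadjusted p under 0.05, where 21.5% of all tested genes passed. The authors' deposited table had 3 higher and 2 lower under its q threshold, where 10.8% of all tested genes passed. Cyr61, the largest change of these, was at 25.7, 33.2 and 48.5 FPKM in knockout and 6.92, 21.5 and 12.4 FPKM in wild type (log2 fold change 1.42, limma adjusted p = 0.0848), with a q-value of 0.00119 in the authors' deposited table. Srf itself, singled out after its values were seen, was at 5.52, 6.25 and 7.35 FPKM in knockout and 6.96, 10.2 and 12.9 FPKM in wild type, with an overlap between the highest knockout and the lowest wild-type library (log2 fold change -0.55, limma adjusted p = 0.185). The authors' deposited table gives Srf a q-value of 0.00460, past its threshold. Mkl1, also singled out after its values were seen, was at 0.860, 1.34 and 1.08 FPKM in knockout and 1.66, 2.41 and 3.42 FPKM in wild type, without overlap. Its log2 fold change was -0.72 (limma adjusted p = 0.114), with a q-value of 0.0239 in the authors' deposited table. The other genes of that list lower at an unadjusted p under 0.05 by limma were Mkl2 and Actg1.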

How the data were processed

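RNA-seq of quadriceps was analysed in 3 knockout and 3 wild-type libraries, grouped by their titles. The authors deposited FPKM values per gene and library with a Cuffdiff p-value and q-value per gene, for which TopHat2, Cuffdiff and the build mm9 are named per the submitters' processing notes. The versions, annotation, strandedness and library scaling behind them are not stated in the labels, and fragment numbers are not in the table. The genes tested were the 9204 of 24354 with a deposited p-value under 1. Limma 3.58.1 (R 4.3.3) with a mean-variance trend was fitted to log2(FPKM + 1), two-sided, with Benjamini-Hochberg adjustment over all tested genes. It was tested on simulated data. The design had no replicate block. Members, lists (23, with 198 of 199 symbols found, 3 of them through synonyms) and tests were chosen with earlier results of these data known. Named genes were the 10 members, related actin, myosin and transgelin genes, Hdac3, called genes of each list or else the largest change, and the 5 genes most correlated with each class, of which 1 is not reported here. The HDAC3 peak lists carry mm9 coordinates and no gene names and were not used here, since no mm9 annotation was at hand. Promoters came from RefSeq (GRCm38.p6).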

Additional observations from a re-analysis of the deposited data

How the results depend on the processing

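None of the 10 vessel genes was called under any of the 15 settings tried for each. The number of genes called over the whole table, 434 (280 rose, 154 fell), was 247 (152 rose, 95 fell) with no filter on low values, 998 (543 rose, 455 fell) by the q-value of the authors' deposited table, and 20 to 292 (14 to 186 rose, 6 to 106 fell) with a library left out, the lowest without wild-type replicate 2. With the replicate number as a block it was 52 (34 rose, 18 fell), and Angpt1, Vegfb, Prkg1 and Lmod1 lost their calls. Deviations of same-numbered libraries correlated at -0.00285, 0.0473 and 0.0487, so the numbers were not taken as pairing, and 1 of 3 knockout libraries correlated best with its own number. Vegfb was also not called without a trend (adjusted p = 0.0507), nor were Vegfb and Lmod1 with no filter (0.0742 and 0.0851). With a library left out, the sign turned for Cdh5 (-0.058 to 0.098), Kdr (-0.35 to 0.086), Tie1 (-0.022 to 0.21) and Myh11 (-0.11 to 0.11). The difference of class medians, vessel wall minus endothelial, was 0.22 without Acta2, 0.21 with means over members and 0.0068 to 0.23 with a library left out. Scaling to median ratios or by quantiles turned no sign. The half-width of the interval, 0.35 at the median of the 10 genes on the log2 scale, limits what could be detected.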

Other observations

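Cells that lie around the vessels of muscle gave the following levels. Of 6 fibroblast genes all were tested, none was called by limma, 1 was lower at an unadjusted p under 0.05, and 2 had a q-value under the threshold in the authors' deposited table, both lower. Col1a1 was at 24.7, 40.2 and 12.9 FPKM in knockout and 28.7, 43.0 and 65.3 FPKM in wild type (log2 fold change -0.85, limma adjusted p = 0.297). Of 6 macrophage genes 4 were tested and none was called, with 2 higher and 2 lower, Csf1r (log2 fold change -0.21) and Cd163 (-0.13). Limma had 0 at an unadjusted p under 0.05, where 21.5% of all tested genes passed. The authors' deposited table had 0 past its q threshold, where 10.8% of all tested genes passed. Mrc1, the mannose receptor of resident macrophages, was at 7.68, 5.80 and 5.77 FPKM in knockout and 5.73, 3.74 and 4.54 FPKM in wild type, without overlap (log2 fold change 0.39, limma adjusted p = 0.238). Its highest wild-type library, at 5.73 FPKM, lay close to its lowest knockout library, at 5.77 FPKM, and 28.0% of all tested genes did not overlap. The sum of 5 Schwann cell genes was 22.7 to 24.5 FPKM in knockout and 23.6 to 29.1 FPKM in wild type, with Pmp22 at a log2 fold change of -0.16. The sum of 4 adipocyte genes was 2.73 to 10.5 FPKM in knockout and 4.93 to 8.38 FPKM in wild type, and that of 3 satellite cell genes was 0.451 to 0.576 FPKM in knockout and 1.31 to 1.72 FPKM in wild type, with none of the 3 tested. Red cell genes summed to 63.2 to 232 FPKM in knockout and 60.9 to 275 FPKM in wild type, with Hba-a1 at a log2 fold change of -0.39.

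Muscle fibre genes framed the tissue. Of the 6 skeletal fibre genes none was called. Limma had 0 at an unadjusted p under 0.05, where 21.5% of all tested genes passed. The authors' deposited table had 0 under its q threshold, where 10.8% of all tested genes passed. Pvalb, parvalbumin of fast fibres, had the largest change of these, a log2 fold change of 0.17. Of 7 genes of immature fibres 3 were tested and none was called by limma. At an unadjusted p under 0.05 limma had 1 higher, Myog, and 1 lower, Actc1, where 21.5% of all tested genes passed in either direction. Myog and Actc1 also passed the q threshold of the authors' deposited table, as did 10.8% of all tested genes. Myog was at 3.99, 4.07 and 5.96 FPKM in knockout and 2.01, 0.906 and 2.70 FPKM in wild type, without overlap (log2 fold change 1.02, limma adjusted p = 0.0768).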
